A study of Mus musculus with 2 samples.

Results

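Toll-like receptor signalling in the mouse heart was described from 9 genes, out of 55357 genes listed in the count tables. They were taken by gene symbol: the receptors Tlr2, Tlr3, Tlr4, Tlr7 and Tlr13, the co-receptor Cd14, the adaptor Myd88 and the kinases Irak2 and Irak3. Their counts were read in 2 single-cell RNA sequencing libraries of whole heart, 1 named Sham and 1 named TAC, both of genotype C57BL/6. TAC is transverse aortic constriction, a surgical narrowing of the aorta that loads the left ventricle with pressure. It was set in male mice aged 8 weeks and lasted 6 weeks. The Sham mice had the same surgery without the constriction according to the treatment label, whereas the design text calls them uninjured. Each library pooled the cells of 3 to 5 hearts, so a condition was 1 sample and no test between conditions was possible. All intervals below are exact 95% intervals that cover counting error only, and neither mouse-to-mouse nor library-to-library spread is in them.

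Toll-like receptors bind molecules of microbes and of damaged cells. TLR2 and TLR4 act at the cell surface, with CD14 handing lipid ligands to them, while TLR3, TLR7 and TLR13 sense RNA inside endosomes. Most of these receptors signal through MYD88, which recruits IRAK kinases and leads to NF-κB and to inflammatory cytokines, whereas TLR3 uses the adaptor TICAM1 (TRIF) and leads to interferons. IRAK2 carries the signal onward and IRAK3, also called IRAK-M, is known as a brake on it in macrophages. In the heart the pathway is best known from resident and recruited macrophages.

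The Sham library held 9935 barcodes and 28146691 UMIs (unique molecular identifiers, each standing for 1 captured RNA molecule), and the TAC library 9932 barcodes and 29108986 UMIs. After removal of likely doublets, 9475 and 9452 cells were kept, with medians of 1906 and 2080 UMIs, and 32 barcodes occurred in both libraries. Clusters were named from marker genes as macrophage-like, fibroblast-like and so on, and the suffix is left out below. In Sham and TAC there were 1412 and 1347 macrophages, 2290 and 2126 fibroblasts, 1904 and 2256 endothelial cells, 2512 and 2394 cardiomyocytes, and 1064 and 1043 pericytes. The labels describe dissociated single cells. Mitochondrial RNA made up 0.142 to 1.44% and ribosomal protein RNA 0.126 to 0.306% of the UMIs in these types, and whether whole cells or mainly nuclei were captured was not tested, so a level may stand for cellular or largely nuclear RNA. All 10 macrophage markers were detected in the macrophages, with a summed level of 6617 and 6705 per 1000000 UMIs. Genes of cardiomyocytes were also found there, with all 9 markers detected and a summed level of 3818 in Sham and 2339 in TAC. The 9 genes together had 9699 and 9520 UMIs in the deposited tables. A level is given throughout as UMIs of a gene per 1000000 UMIs of a cell type, a scale without gene length, so levels were compared between cell types and libraries but not between genes.

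**Figure D1:**
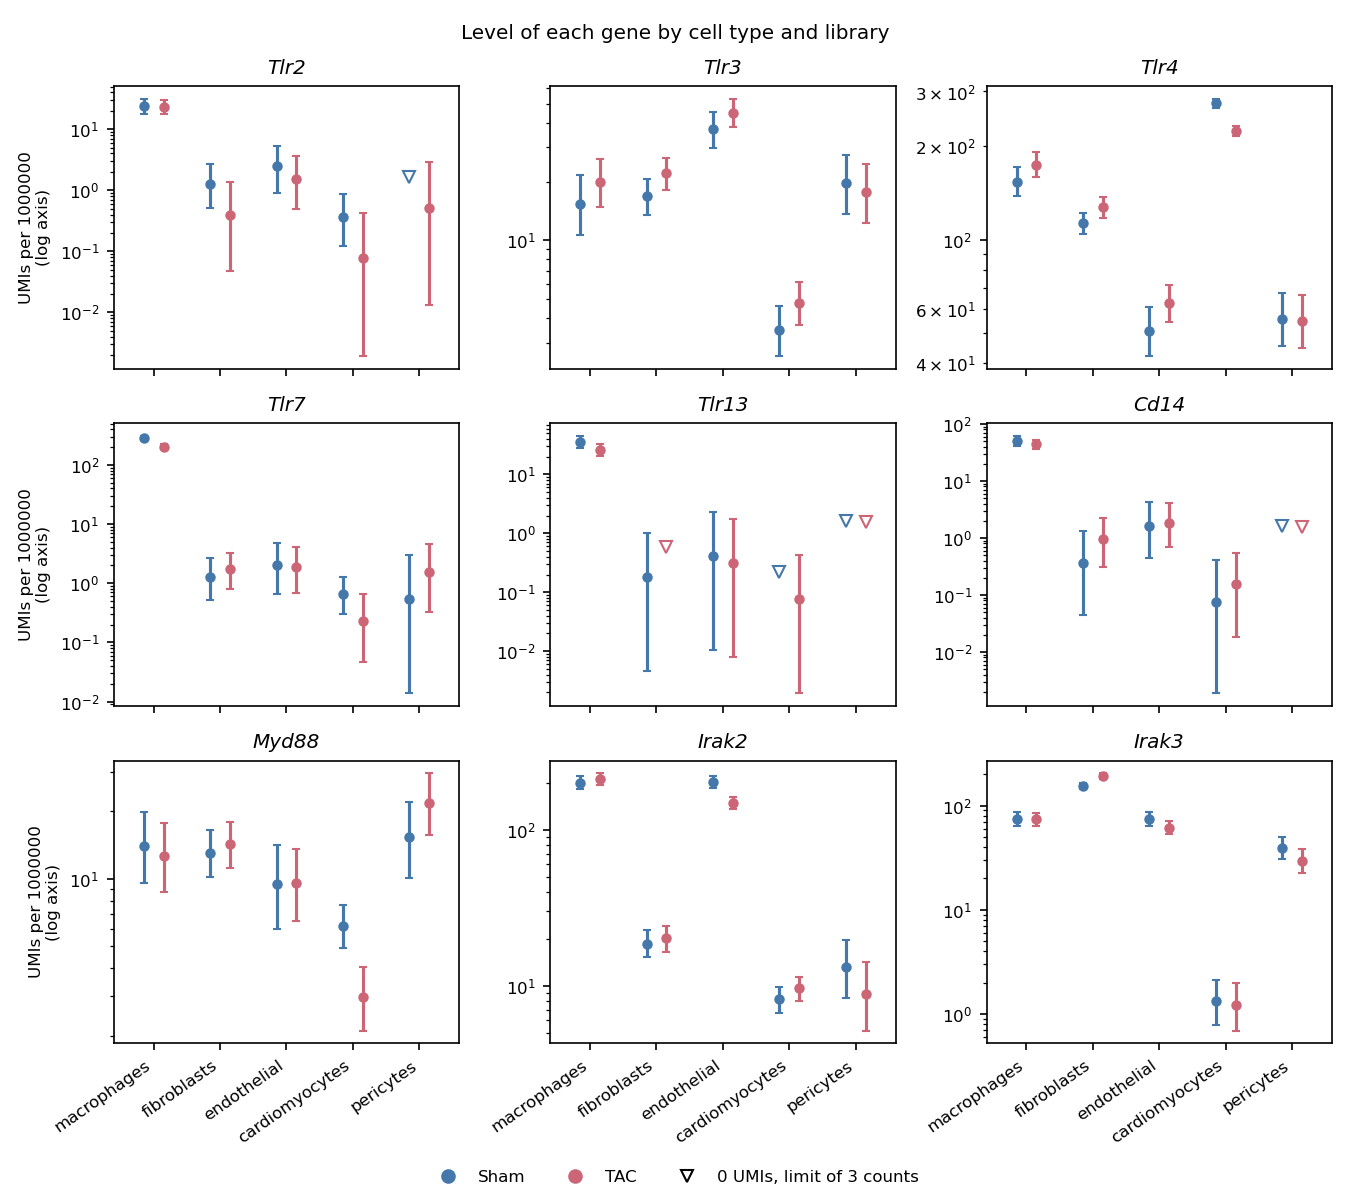
Level of each of the 9 genes (UMIs per 1000000 UMIs, log axis) in 5 cell types, with 1 point per library and bars for the exact 95% counting interval; open triangles mark 0 UMIs, drawn at the limit that 3 counts set. Tlr7, Tlr13, Cd14 and Tlr2 stood at their highest level in macrophages of both libraries, Tlr4 in cardiomyocytes, Tlr3 in endothelial cells and Irak3 in fibroblasts.

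Tlr7, a receptor for single-stranded RNA, was almost confined to the macrophages. Of its UMIs, 95.7% in Sham and 95.9% in TAC lay in them. Its level there was 284 (263–307, 628 UMIs) in Sham and 204 (187–222, 532 UMIs) in TAC. In the other 4 large cell types it was at most 2.06 in either library, and macrophages stood above endothelial cells by 138 times in Sham and 110 times in TAC. RNA set free from broken cells can leave a gene in other cell types, and its part in these Tlr7 levels was not tested. Tlr7 in the other 4 types stood at 0.112 to 0.910% of its macrophage level. The summed macrophage markers stood at 0.355 to 3.71% there, and single markers at 0 to 21.3%. The TAC/Sham ratio in macrophages was 0.717 (0.637–0.806), the lowest of the 9 genes in these cells. When every cell was thinned to 1000 UMIs, 21.2% of 1011 macrophages (18.7–23.8%) held a Tlr7 UMI in Sham and 15.1% of 1125 (13.1–17.3%) in TAC. Thinning left out 401 and 222 macrophages below that depth, the median depth being 1314.5 and 1661 UMIs. Without thinning the shares were 27.7% and 25.8%. Among cardiomyocytes thinned in the same way, with median depths of 4507.5 and 4917.5 UMIs, 0.0404% had a Tlr7 UMI in Sham and 0 of 2384 in TAC, which allows a share of up to 0.126% by the limit of 3 counts. Without thinning these shares were 0.358% and 0.125%.

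Tlr13, which senses bacterial ribosomal RNA, and Tlr2, the surface receptor for bacterial lipopeptides, were also genes of the macrophages but at far fewer UMIs. Tlr13 had 97.5% and 97.2% of its UMIs there, with a level of 35.8 in Sham (79 UMIs) and 26.4 in TAC (69 UMIs), and the interval of the ratio, 0.739 (0.527–1.03), held 1, though not with cells typed by their own markers (0.699, 0.495–0.985). Outside macrophages at most 1 UMI of Tlr13 was found in any of the other large types. Tlr2 had 73.6% of its UMIs in macrophages in Sham and 87.1% in TAC. Its level of 24.0 in Sham (53 UMIs) was close to 23.4 in TAC (61 UMIs), with a ratio of 0.973 (0.663–1.43). The interval runs from 0.663 to 1.43, so at this depth the counts do not exclude ratios as far from 1 as these.

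The stretches around the start sites of Tlr2 and Tlr13, the pair of macrophage receptors with an entry among the RefSeq promoter windows used here (mouse build GRCm38.p6), are shown for the letters of inflammatory and myeloid binding motifs they hold. Each runs 5′ to 3′ on the gene's strand, from 250 bases before the annotated start to 50 bases after it, with a motif match in capitals. The Tlr2 window lies at chr3:83841559-83841858 on the minus strand, and its capitals, from base 79, mark the NF-κB letters GGGNNTTCC, found as overlapping matches on both strands. The Tlr13 window lies at chrX:106143025-106143324 on the plus strand, and its capitals, from base 251, mark the C/EBP letters TTGCNNAA, which are read on the opposite strand and so appear here as their reverse complement.
Tlr2: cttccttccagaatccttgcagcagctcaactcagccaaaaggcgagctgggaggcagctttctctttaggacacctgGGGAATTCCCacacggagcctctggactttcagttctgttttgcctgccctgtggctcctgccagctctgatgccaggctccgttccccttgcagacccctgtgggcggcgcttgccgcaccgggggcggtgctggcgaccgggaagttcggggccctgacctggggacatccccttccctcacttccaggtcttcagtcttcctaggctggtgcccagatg
Tlr13: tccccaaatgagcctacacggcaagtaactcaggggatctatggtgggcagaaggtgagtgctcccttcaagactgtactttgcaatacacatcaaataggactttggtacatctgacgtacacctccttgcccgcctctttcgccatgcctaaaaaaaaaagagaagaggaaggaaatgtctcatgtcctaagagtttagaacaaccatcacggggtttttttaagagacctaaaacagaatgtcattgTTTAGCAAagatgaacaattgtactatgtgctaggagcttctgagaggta
Of all 32851 windows, 5.82% held the NF-κB letters on either strand and 10.8% the C/EBP letters. A window was found for 6 of the 9 genes, Tlr2, Tlr3, Tlr13, Myd88, Irak2 and Irak3. Tlr3 and 1 of the pair of Irak3 windows also held the C/EBP letters and Irak2 held none of the 5 motifs searched. None of these windows held the PU.1 letters GAGGAAGT, found in 3.20% of all windows, or the AP-1 letters TGANTCA, found in 7.81%. These matches are letters in a window and not measured binding.

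The macrophages of both libraries were split into subclusters without the pathway genes. The largest was led by Vsig4, Pdgfc and Lyve1, genes known from resident macrophages, with 506 cells in Sham and 613 in TAC. Another was led by Alcam, Ciita and H2-Ab1, with 165 and 354 cells. H2-Ab1 is a gene of antigen presentation on MHC class II. The remaining large one, with 733 and 373 cells, was led by the cardiomyocyte genes Dmd, Myh6 and Ryr2. Its median depth over both libraries was 1012 UMIs, against 2158 and 1628 in the others.

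Tlr7 stood lower in TAC in each of the 3 subclusters. Its level was 316 in Sham and 217 in TAC in the Vsig4 subcluster, a ratio of 0.687 (0.590–0.80). In the Ciita subcluster it was 225 and 153, a ratio of 0.678 (0.488–0.947), and in the Dmd subcluster 259 and 231, a ratio of 0.891 (0.688–1.15). Without the Dmd subcluster and a subcluster of 15 cells led by endothelial genes, the ratio over macrophages was 0.665 (0.580–0.762), and in macrophages with at least 1000 UMIs it was 0.694 (0.614–0.785). The part of cardiomyocyte RNA in the difference was not tested. In the macrophages as a whole the TAC/Sham ratio of ribosomal protein RNA was 1.29 and that of mitochondrial RNA 0.759, and their part was not tested either.

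The other macrophage genes followed another order among the subclusters. The levels of Tlr13, Tlr2 and Cd14 stood highest in the Ciita subcluster of both libraries, Tlr13 at 61.8 in Sham and 35.8 in TAC against 27.4 and 23.1 in the Vsig4 subcluster. Tlr2 was at 50.9 and 39.0 against 21.2 and 16.7. Irak2 was likewise at 371 in Sham and 329 in TAC in the Ciita subcluster, and at 134 and 142 in the Vsig4 subcluster. For Tlr7 the Vsig4 subcluster stood above the Ciita subcluster in both libraries. The intervals of these subclusters overlapped for Tlr13 and Cd14 in both libraries and for Tlr2 and Tlr7 in Sham. Those of the Ciita and Dmd subclusters overlapped for Tlr13, Tlr2 and Cd14 in both libraries, so the counts do not settle the order of these genes. The subclusters were made from these same cells, so their differences are a description.

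**Figure D2:**
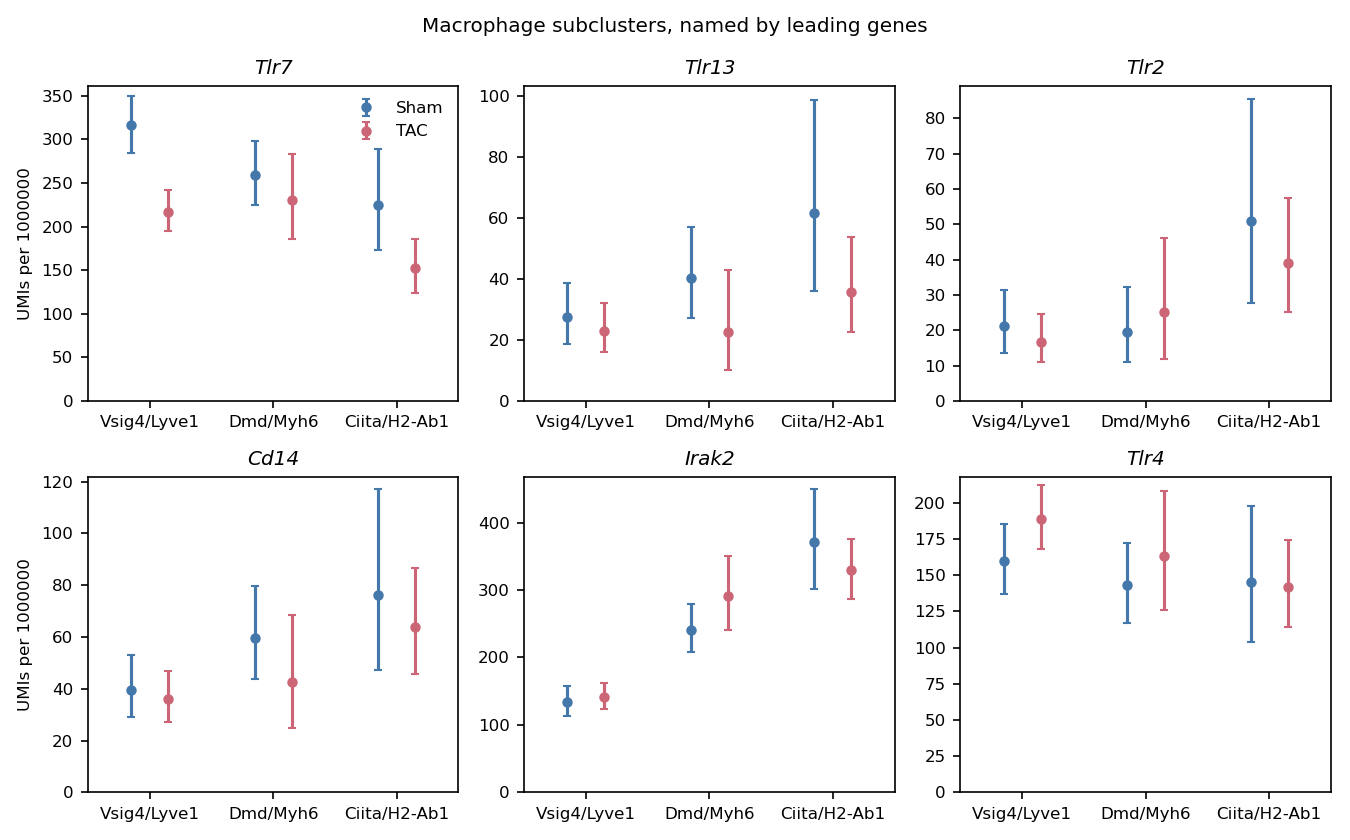
Level (UMIs per 1000000 UMIs) of 6 of the genes in the 3 large macrophage subclusters, named by leading genes, for the Sham and TAC libraries with exact 95% counting intervals. Tlr7 stood higher in the Vsig4 than in the Ciita subcluster in both libraries, while Tlr13, Tlr2, Cd14 and Irak2 stood higher in the Ciita subcluster. The intervals of these subclusters overlapped for Tlr13 and Cd14 in both libraries and for Tlr2 and Tlr7 in Sham.

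Cd14, which passes lipopolysaccharide to TLR4, had 93.3% of its UMIs in macrophages in Sham and 89.1% in TAC. Its level there was 50.7 (112 UMIs) and 43.7 (114 UMIs), with a ratio of 0.861 (0.657–1.13). In endothelial cells, the next type, it was at 1.65 and 1.85, and no UMI was found in pericytes of either library.

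Tlr4, the receptor for lipopolysaccharide, did not follow Cd14. It had the most UMIs of the 9 genes, and 75.4% of them in Sham and 67.2% in TAC lay in cardiomyocytes. These cells held 52.0% and 49.2% of the kept UMIs of all genes. The level in cardiomyocytes was 275 (266–284, 3706 UMIs) in Sham and 224 (216–233, 2942 UMIs) in TAC, a ratio of 0.816 (0.778–0.857). Cardiomyocytes stood above macrophages by 1.79 times (1.60–2.01) in Sham and 1.29 times (1.17–1.42) in TAC, the distance being smaller in TAC. Macrophages came next, with 153 and 174, and stood above fibroblasts, with 113 and 127, by 1.36 and 1.38 times. Fibroblasts stood above the next type by 2.03 times in both libraries. Pericytes (55.6 and 54.6) and endothelial cells (50.7 and 62.4) could not be told apart in either library.

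Tlr4 outside cardiomyocytes was set against the cardiomyocyte markers in the same cells. In macrophages, fibroblasts, endothelial cells and pericytes of Sham, Tlr4 stood at 55.9%, 41.0%, 18.5% and 20.2% of its cardiomyocyte level, while the summed 9 cardiomyocyte markers stood at 4.66%, 3.20%, 6.03% and 4.15% of theirs. In TAC the shares were 77.7%, 56.5%, 27.8% and 24.3% for Tlr4 and 3.67%, 3.01%, 5.41% and 3.85% for the markers. Single markers ranged widely, the highest standing at 20.6% in Sham macrophages and 15.3% in Sham fibroblasts, and at 18.4% and 14.5% in TAC, all below Tlr4. In endothelial cells the highest marker stood at 27.9% in Sham, above Tlr4, and at 25.5% in TAC, close to it, and in pericytes at 20.2% and 15.8%. The part of free RNA in these Tlr4 levels was not tested. In cells thinned to 1000 UMIs a Tlr4 UMI was found in 18.8% of cardiomyocytes in Sham and 16.0% in TAC, in 13.4% and 14.7% of macrophages, and in 4.31% and 5.50% of endothelial cells. Thinning left out 814 of 1904 endothelial cells in Sham and 728 of 2256 in TAC. Without thinning the shares were 50.2% and 45.8%, 17.5% and 23.5%, and 5.46% and 7.0%.

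The TAC/Sham ratio of Tlr4 lay above 1 in macrophages, fibroblasts and endothelial cells, unlike that in cardiomyocytes. Macrophages gave 1.14 (0.984–1.31), fibroblasts 1.13 (1.01–1.26), endothelial cells 1.23 (0.978–1.55) and pericytes 0.983. Of the first 3, only that in fibroblasts left out 1, and it no longer did so with doublets kept in (1.06, 0.956–1.19), with each cell typed by its own markers (1.11, 0.991–1.25) or in cells with at least 1000 UMIs (1.12, 0.999–1.25). The ratio in endothelial cells did leave out 1 in cells with at least 1000 UMIs (1.33, 1.03–1.72). With both libraries clustered together there were 3 cardiomyocyte clusters, and their sizes differed between the libraries. The cluster led by Ptgds held 1060 Sham and 466 TAC cells and had a Tlr4 level of 317 and 301, with a ratio of 0.95 (0.858–1.05). In the cluster led by Kbtbd12, Kcnd2 and Myh7, with 1177 and 1345 cells, the level was 276 and 244, a ratio of 0.884 (0.830–0.942). In the cluster led by Pdzrn4 and Fgf14, with 273 and 581 cells, it was 178 and 150, a ratio of 0.843 (0.736–0.967). With each library clustered by itself the cells divided otherwise. The cluster led by Pdzrn4 and Gm12381 held 1177 cells in Sham and 1135 in TAC, with Tlr4 at 273 (261–284) and 181 (172–191). The other cluster, led by Slc38a3 and Mlxipl in Sham and by Ankrd1 and Myh7 in TAC, had 1335 and 1259 cells and Tlr4 at 278 in both. How the difference divides among clusters thus depended on the clustering. In all cardiomyocytes the TAC/Sham ratio of mitochondrial RNA was 0.545 and that of ribosomal protein RNA 1.04, and their part in the Tlr4 difference was not tested.

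**Figure D3:**
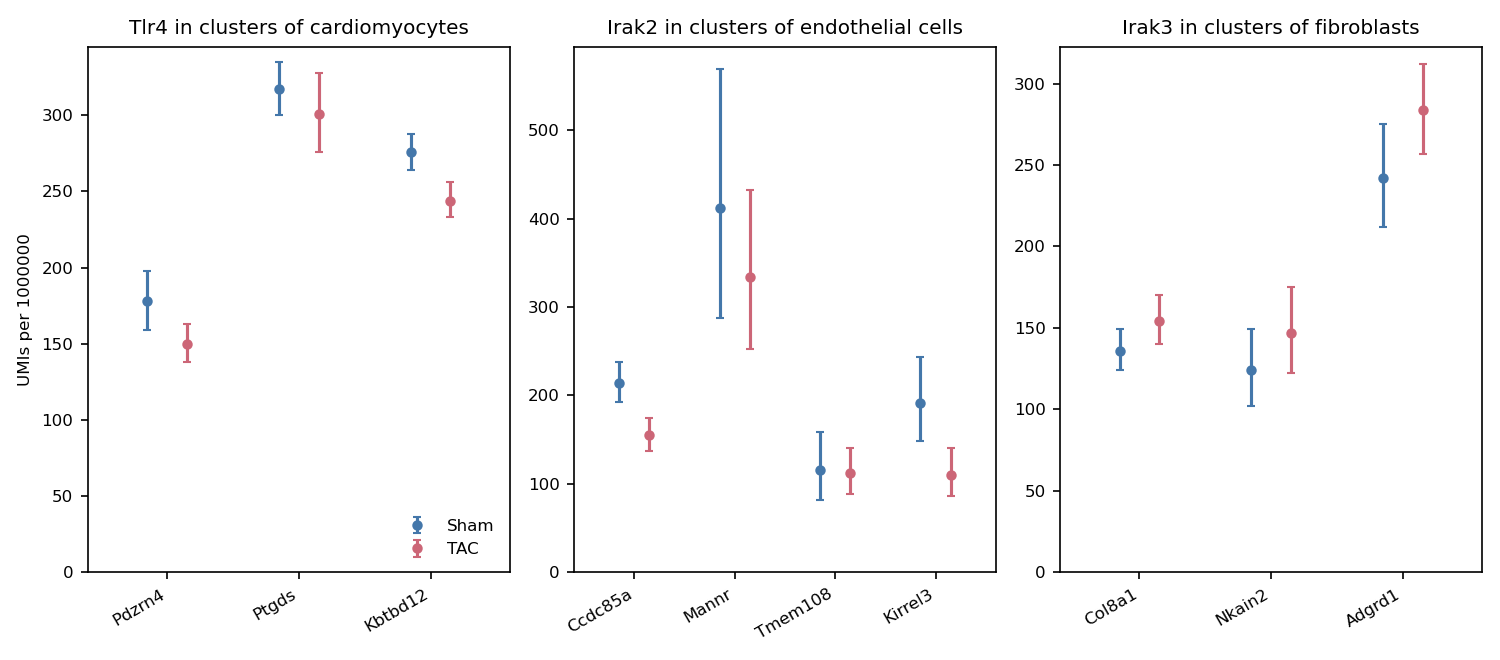
Level (UMIs per 1000000 UMIs) of Tlr4 in cardiomyocyte clusters, Irak2 in endothelial clusters and Irak3 in fibroblast clusters, with both libraries clustered together; points are libraries and bars exact 95% counting intervals. Tlr4 stood lowest in the Pdzrn4 cluster, Irak2 highest in the Mannr cluster and Irak3 highest in the Adgrd1 cluster, in both libraries.

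Tlr3, the receptor for double-stranded RNA, stood highest among the large types in endothelial cells. Its level there was 37.1 in Sham and 45.1 in TAC, above the next type by 1.89 times (1.27–2.87) and 2.05 times (1.59–2.64). Pericytes (19.6 and 17.7), fibroblasts (16.8 and 22.0) and macrophages (15.4 and 19.9) could not be told apart from their neighbours among these 3 in either library, and cardiomyocytes were lowest with 3.48 and 4.80. Over all cells Tlr3 was at 12.8 in Sham and 16.0 in TAC, a ratio of 1.25 (1.08–1.45). In none of the 5 types did the interval leave out 1, the ratios being 1.22 (0.928–1.60) in endothelial cells, 1.31 (0.986–1.75) in fibroblasts, 1.38 (0.930–2.06) in cardiomyocytes, 1.29 (0.824–2.06) in macrophages and 0.902 in pericytes. In endothelial cells it did leave out 1 with doublets kept in (1.31, 1.01–1.70), and in fibroblasts with doublets kept in (1.42, 1.07–1.90) and with cells typed by their own markers (1.36, 1.01–1.83).

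A far higher Tlr3 level came from a few cells. In Sham, a cluster of 49 cells was left unnamed because the cell-cycle genes Mki67 and Top2a were among its leading genes, although Clec9a, Xcr1, Flt3, Itgax and Zbtb46, markers of dendritic cells, also passed there. Its Tlr3 level was 250 (160–373), from 24 UMIs. In TAC, 6 cells within the macrophages that were led by Gm36723, Btla and Clec9a had a level of 752, from 9 UMIs. Without the 38-cell TAC cluster that held them, led by Fgr, Gpr141 and Ccr2, the ratio of Tlr3 in macrophages was 1.10 (0.686–1.78) in place of 1.29.

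Myd88, the adaptor shared by nearly all the receptors, was low and spread over all types. In Sham its level was 15.3 in pericytes, 14.0 in macrophages, 13.1 in fibroblasts, 9.49 in endothelial cells and 6.15 in cardiomyocytes, and no neighbours in this order could be told apart. In TAC the levels in the same order were 21.8, 12.6, 14.3, 9.58 and 2.97. Pericytes then stood above fibroblasts by 1.53 times (1.02–2.27), and endothelial cells above cardiomyocytes by 3.22 times (1.94–5.30).

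Cardiomyocytes gave the only Myd88 ratio whose interval left out 1, 0.483 (0.322–0.715), from 83 UMIs in Sham and 39 in TAC. With both libraries clustered together, the ratio in the 3 cardiomyocyte clusters was 0.451 (0.172–1.17), 0.561 (0.207–1.31) and 0.508 (0.289–0.868). Only the last of these intervals, in the Kbtbd12 cluster, left out 1. The others came from 11 UMIs in Sham and 10 in TAC, and from 29 and 7. Pericytes as a whole gave a Myd88 ratio of 1.43 (0.867–2.40). Of the fibroblast clusters of both libraries, that led by Adgrd1 and Gfpt2 gave 3.02 (1.12–10.2), from 5 UMIs in Sham and 23 in TAC. Those led by Col8a1 and by Nkain2 gave 1.02 (0.653–1.58) and 0.691 (0.292–1.56). Myd88 overlaps Acaa1a, an enzyme gene of fatty acid oxidation on the opposite strand, and Slc22a14, a transporter gene on the same strand. In cardiomyocytes Acaa1a was at 38.9 in Sham and 26.5 in TAC, a ratio of 0.681 (0.593–0.781), and Slc22a14 at 9.64 and 14.7, a ratio of 1.53 (1.22–1.92). The part of these overlaps in the Myd88 difference was not tested.

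The Myd88 window of the RefSeq promoter set is shown for the interferon response letters it holds. It lies at chr9:119339969-119340268 on the minus strand of GRCm38.p6, wholly inside the gene as GENCODE M21 draws it, and runs 5′ to 3′. Its capitals, from base 211, mark the interferon-stimulated response element, GAAA and again GAAA with any 2 bases between, found in 3.44% of all windows.
Myd88: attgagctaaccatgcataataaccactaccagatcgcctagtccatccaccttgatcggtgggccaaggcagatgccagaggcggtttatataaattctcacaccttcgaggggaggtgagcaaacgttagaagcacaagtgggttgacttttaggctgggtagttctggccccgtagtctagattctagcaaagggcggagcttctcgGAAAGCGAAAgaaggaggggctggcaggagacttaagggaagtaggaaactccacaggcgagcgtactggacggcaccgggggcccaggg

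Irak2 had 2 main sites, endothelial cells and macrophages. In Sham they stood side by side, with levels of 203 (493 UMIs) and 200 (442 UMIs) and a ratio between them of 1.02 (0.892–1.16). In TAC the level in endothelial cells was 149 (482 UMIs) and that in macrophages 212 (553 UMIs), so that macrophages stood above endothelial cells by 1.42 times (1.26–1.61). The TAC/Sham ratio was 0.732 (0.645–0.832) in endothelial cells and 1.06 (0.932–1.20) in macrophages, and the difference between these ratios was not tested. Ribosomal protein RNA in endothelial cells had a ratio of 0.955 and mitochondrial RNA one of 0.784, and their part was not tested. Fibroblasts (18.6 and 20.1), pericytes (13.1 and 8.84) and cardiomyocytes (8.16 and 9.61) stood far below. Small lymphocyte clusters also held Irak2, with levels of 202 and 344 in B cells (35 cells in each library) and 141 and 295 in T cells (37 and 57 cells).

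Within the endothelial cells Irak2 stood highest in the cluster led by Mannr, Gja5 and Sema3g, of which the latter pair are known from arterial endothelium. The level there was 412 in Sham and 334 in TAC, a ratio of 0.810. In the largest cluster, led by Ccdc85a and Ablim3, it was 214 and 155, a ratio of 0.723 (0.613–0.851), and in the cluster led by Kirrel3 and Kcnc2 191 and 110, a ratio of 0.576 (0.404–0.823). It was 115 and 112 in the cluster led by Tmem108, Nrg1 and Npr3, a ratio of 0.978. Tlr4 showed another order, with 121 and 108 in the Tmem108 cluster and 40.9 and 48.8 in the Ccdc85a cluster.

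Irak3, the inhibitory kinase, had 64.3% of its UMIs in fibroblasts in Sham and 66.7% in TAC. Its level there was 153 (143–164, 833 UMIs) and 191 (179–203, 988 UMIs), a ratio of 1.24 (1.13–1.36). In the same fibroblasts ribosomal protein RNA had a ratio of 1.44 and mitochondrial RNA one of 1.12, and their part in the Irak3 difference was not tested. Fibroblasts stood above the next type by 2.06 times in Sham and 2.59 times in TAC. Macrophages (74.3 and 73.5) and endothelial cells (74.6 and 61.2) could not be told apart, pericytes followed with 39.2 and 29.7, and cardiomyocytes were lowest with 1.33 and 1.22. The ratio was 0.990 (0.80–1.23) among macrophages, 0.819 (0.666–1.01) among endothelial cells and 0.756 (0.524–1.08) among pericytes. That among endothelial cells left out 1 with doublets kept in (0.732, 0.605–0.886), with both libraries clustered together (0.807, 0.655–0.995) and with cells typed by their own markers (0.805, 0.653–0.993). Relative to fibroblasts, Irak3 in macrophages stood at 48.4% in Sham and 38.6% in TAC, while the summed fibroblast markers stood at 5.30% and 4.81%. The highest single marker there stood at 10.6% and 7.75%. In endothelial cells Irak3 stood at 48.6% and 32.1% and the highest marker at 26.1% and 29.0%. In pericytes Irak3 stood at 25.6% and 15.6%, below the highest marker at 34.3% and 24.3%. The part of free RNA in these Irak3 levels was not tested. A UMI was found in 11.5% of fibroblasts in Sham and 15.9% in TAC after thinning to 1000 UMIs, and in 0.202% and 0.126% of cardiomyocytes. Without thinning it was 24.9% and 31.6% of fibroblasts and 0.717% and 0.627% of cardiomyocytes.

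The fibroblast cluster led by Adgrd1 and Gfpt2 had the highest Irak3 level, 242 in Sham and 284 in TAC, a ratio of 1.17 (0.998–1.38), and it held 324 Sham and 537 TAC cells. The cluster led by Col8a1 and Nox4 was at 136 and 154, a ratio of 1.13 (0.993–1.29), and that led by Nkain2 and Fbn2 at 124 and 147, a ratio of 1.18. With each library clustered by itself, the Adgrd1 and Gfpt2 cluster held 437 Sham and 434 TAC cells, with Irak3 at 230 (205–259) and 321 (289–356), a wider distance than with both clustered together.

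**Figure D4:**
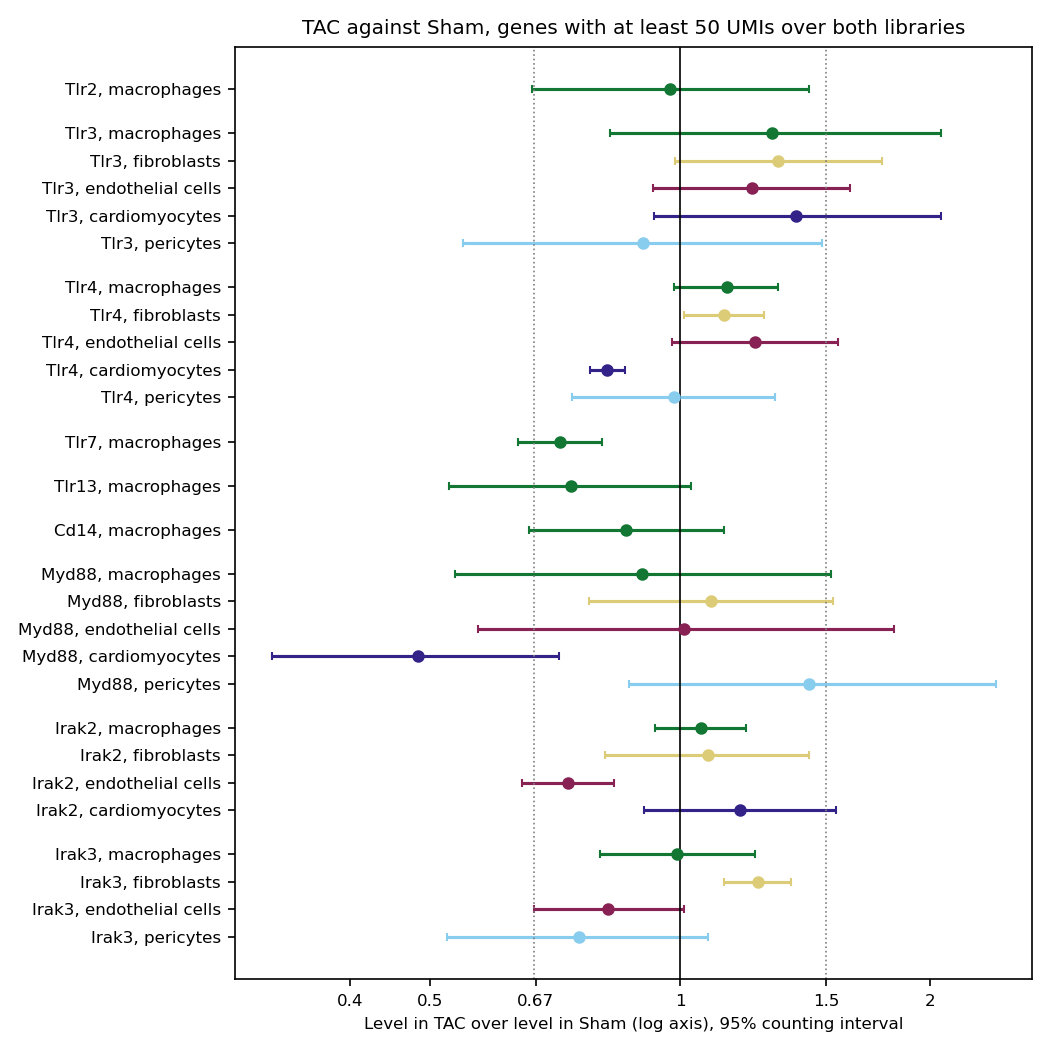
TAC/Sham ratio of the level of each gene (log axis) in the 5 large cell types, with exact 95% counting intervals; dotted lines mark 1.5-fold higher and lower. Myd88 in cardiomyocytes, at 0.483, is the only ratio beyond a dotted line among genes with at least 50 UMIs over both libraries, and Tlr7 in macrophages stands at 0.717.

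The differences of the 9 genes were read against all genes with at least 50 UMIs over both libraries. In macrophages, where all 9 genes had enough UMIs, none was 1.5-fold higher or lower, against 9.16% higher and 8.76% lower among 9537 genes. In cardiomyocytes 1 of 4, Myd88, was 1.5-fold lower, against 6.74% of 13301 genes, and none higher, against 12.8%. None passed that fold in fibroblasts (5 genes, background 10.5% higher and 4.33% lower), endothelial cells (5 genes, 8.70% and 5.84%) or pericytes (4 genes, 7.41% and 6.55%). An interval wholly below 1 was found for 1 of 9 genes in macrophages (Tlr7), against 16.6% of all genes, for 1 of 5 in endothelial cells (Irak2), against 13.1%, and for 2 of 4 in cardiomyocytes (Tlr4 and Myd88), against 21.3%. An interval wholly above 1 was found for 2 of 5 in fibroblasts (Tlr4 and Irak3), against 18.7%. With so few genes these shares say nothing particular about the group.

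The other receptors were read from the list of 7 remaining Toll-like receptor genes. In macrophages 3 of the 7 had enough UMIs and 1 was 1.5-fold lower, against 8.76% of all genes. This was Tlr5, the receptor for flagellin, at 98.7 in Sham and 59.4 in TAC, a ratio of 0.601 (0.486–0.742). Tlr8, a relative of Tlr7 that also binds RNA, was at 188 and 132, a ratio of 0.699 (0.605–0.809), and Tlr1, a partner of TLR2, had a ratio of 0.931. None of the 7 reached 50 UMIs in the other large types. Tlr9 had 3 UMIs in Sham macrophages and 0 in TAC.

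**Figure D5:**
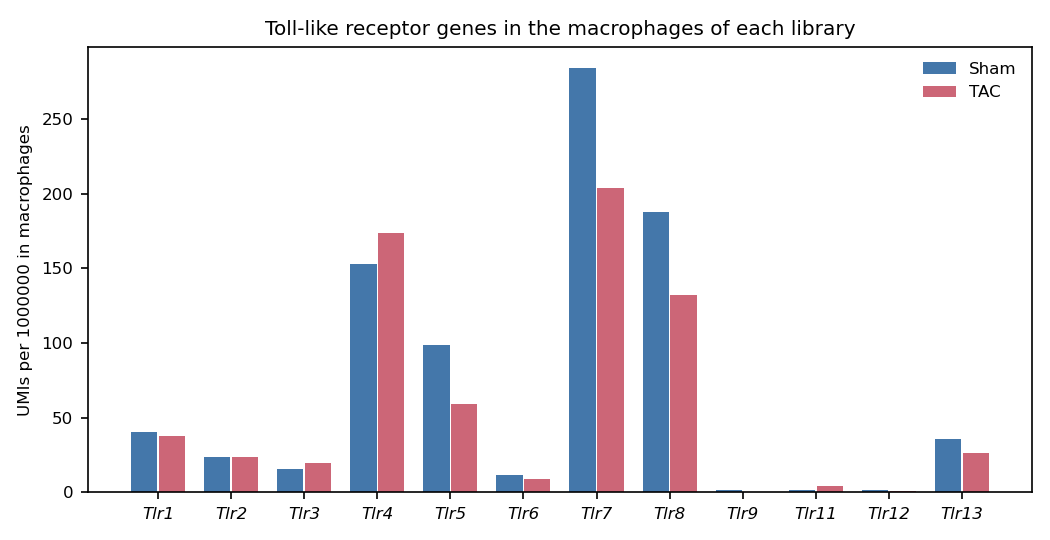
Level (UMIs per 1000000 UMIs) of the 12 Toll-like receptor genes in macrophages of the Sham and TAC libraries, as bars from 0 without error bars. Tlr7, Tlr8 and Tlr5 stood lower in TAC, at 204, 132 and 59.4 against 284, 188 and 98.7, while Tlr4 was at 174 against 153.

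Of 8 co-receptors and chaperones, 7 had enough UMIs in macrophages and 1 was 1.5-fold higher, against 9.16% of all genes there. This was Cd180, a surface relative of the receptors, at 68.4 in Sham and 106 in TAC. Its partner Ly86 was at 350 and 300, and Unc93b1, which carries the endosomal receptors to their compartment, at 550 and 500. Ly96 (MD-2), the partner of TLR4, was at 70.2 and 55.1 in macrophages, and in endothelial cells at 12.8 and 21.6, a ratio of 1.69 (1.09–2.67). Of 5 other adaptors 3 had enough UMIs in macrophages and none passed the fold.

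Among 16 kinases and ubiquitin ligases, all with enough UMIs in macrophages, 2 were higher by the fold there and none lower. Of all genes there, 9.16% were higher and 8.76% lower. The 2 kinase or ligase list genes were Traf6, the ligase downstream of the IRAK kinases, at 28.5 and 43.7, and Ikbkg (NEMO), at 28.1 and 46.7. Irak1 was lower by the fold in 3 types, with ratios of 0.549 (0.483–0.623) in cardiomyocytes, 0.614 (0.443–0.847) in pericytes and 0.631 (0.483–0.823) in endothelium. Of the list genes with enough UMIs, 1 of 14, 1 of 16 and 2 of 16 were lower there, against 6.74%, 6.55% and 5.84% of all genes. In macrophages Irak1 was at 76.5 and 53.2 (0.696, 0.552–0.876). Irak4 was at 21.6 and 32.4 in fibroblasts, a ratio of 1.5. In endothelial cells Traf6 was at 22.7 and 37.7 and Tab1 at 30.5 and 17.9. Of 6 inhibitors 5 had enough UMIs in macrophages and 1 was lower by the fold, against 8.76% of all genes there. This was Tnfaip3 (A20), with a ratio of 0.639 whose interval (0.397–1.02) holds 1. Nfkbia, the inhibitor of NF-κB, was at 39.8 and 23.9 in pericytes.

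Of 6 transcription factors, 5 had enough UMIs in macrophages and none passed the fold. Rel was higher in TAC by the fold in endothelial cells (1.58), cardiomyocytes (1.5) and pericytes (1.96). It was 1 of 5, 1 of 4 and 1 of 4 list genes with enough UMIs there, against 8.70%, 12.8% and 7.41% of all genes. Irf7, a factor of the interferon response, was lower in endothelial cells, at 29.3 and 16.1, against 5.84% of all genes there.

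The read-out genes of the pathway gave a mixed picture. Of 11 NF-κB targets 6 had enough UMIs in macrophages and 3 were higher by the fold, against 9.16% of all genes there. Il1b, a cytokine, was at 22.2 in Sham and 60.5 in TAC, a ratio of 2.73 (1.97–3.84), and the chemokine Cxcl2 at 9.06 and 32.9, a ratio of 3.64 (2.22–6.25). The chemokine Ccl4 was at 9.96 and 16.1, a ratio of 1.61 (0.942–2.84). Nfkbiz (1.08) and Icam1 (0.958) lay near 1, and the lowest ratio of the 6 was 0.722, within the fold. In fibroblasts Cxcl1 was at 10.5 and 32.0, and in endothelial cells Nfkbiz was at 41.2 and 62.7. Of 9 interferon-stimulated genes 3 had enough UMIs in macrophages and none passed the fold, while Rsad2 was at 172 and 106 in endothelial cells and Ifit3 at 16.0 and 9.06 in fibroblasts.

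Immediate-early genes, which respond to the handling of tissue as well as to receptors, were 1.5-fold higher in fibroblasts for 5 of 8 with enough UMIs, against 10.5% of all genes there, among them Junb at 38.7 in Sham and 83.5 in TAC and Nr4a1 at 18.8 and 52.4. In macrophages 1 of 8 was higher, Ier3, at 8.60 and 20.7, against 9.16% of all genes there. In endothelial cells 1 of 9, Nr4a1, was higher, at 18.6 and 51.9, against 8.70% of all genes. Another 2, Fosb and Egr1, were lower, with ratios of 0.369 and 0.655, against 5.84%. Ier3 was higher in cardiomyocytes (1.92), as 1 of 7 against 12.8% of all genes, and Ier2 in pericytes (1.78), as 1 of 4 against 7.41%. Of 6 genes of resident macrophages 2 were higher in macrophages, against 9.16% of all genes there. These were Lyve1 at 143 and 250 and Timd4 at 61.1 and 145, and the others of the 6 were within the fold. Of those others Cd163, a scavenger receptor, was lower in TAC, at 1365 and 938, a ratio of 0.688 (0.652–0.725), and Folr2 was at 61.6 and 85.8. The 5 genes of MHC class II and Ccr2 were within the fold. The part of dissociation and of the mix of macrophage states in the levels of the 9 genes was not tested.

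The genes whose levels over the 5 types and 2 libraries (10 points) ran most like each of the 9 were sought among 13230 genes, by the correlation of log2(level + 1). For Tlr7 they were Pirb, an inhibitory receptor of myeloid cells, and Cd53, a leukocyte tetraspanin, with Pearson's r of 0.997 and 0.996. For Tlr13 they were Nlrp1b and its neighbour Nlrp1c-ps (0.997 each), for Cd14 Pik3cg (0.999) and Batf3 (0.992), and for Tlr2 Gna15 (0.988) and Lifr (0.983). Tlr4 ran with Adal (0.979) and Slc16a10 (0.978), Tlr3 with Stim2 (0.986) and Nmi (0.985), and Irak2 with Tbc1d22a (0.995) and Tnfrsf25 (0.991). Irak3 ran with Panx1 and Fis1 (0.994 each) and Myd88 with Gm37334 (0.966) and Fam207a (0.963). The points share their libraries and depth, and a gene confined to 1 type gives a high r with any other such gene.

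In GENCODE M21 on GRCm38, a build the count tables do not name, Tlr2 lies at chr3:83836272-83841767 and Myd88 at chr9:119335934-119341411, both on the minus strand. Tlr4 lies at chr4:66827584-66930284 on the plus strand, and Tlr3 at chr8:45395665-45411080 on the minus strand. Tlr7 and Tlr13 are on chromosome X, at chrX:167304929-167330558 on the minus and chrX:106143204-106160493 on the plus strand. Irak2 lies at chr6:113638467-113695026 on the plus strand and Irak3 at chr10:120141648-120202130 on the minus strand. Irak3 overlaps Tmbim4 and Gm47009 on the opposite strand. Irak2 and Tlr3 overlap predicted genes that had at most 27 UMIs each in a library.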

How the data were processed

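Cells of whole hearts, dissociated and captured with a 10x Genomics 3′ kit, were sequenced as 1 Sham and 1 TAC library. The authors deposited raw UMI counts per gene and barcode, made with Cell Ranger 7.1.0 per the file headers (the methods of the study name other versions of the kit and of Cell Ranger than the labels and headers); the genome build, the use of intronic reads and the barcode filter are not given in the sources used here. Of the gene identifiers, 94.1% matched GENCODE M21. The 9 genes and all lists were chosen with earlier results of these data known.

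Barcodes with at least 200 genes were kept and doublets removed with Scrublet (459 in Sham and 479 in TAC). Each library was clustered by itself with scanpy 1.11.5 (2000 variable genes, 30 components, 15 neighbours, Leiden resolution 1; 0.5 for macrophage subclusters), leaving out mitochondrial genes and the genes of the lists. A cluster was named where at least 3 markers of a type passed; the leading genes of a cluster are those with the largest fold. Counts were summed per type and library and divided by the kept UMIs of that type; kept cells held 25943020 of 28146691 deposited UMIs in Sham and 26640422 of 29108986 in TAC. With 1 library per condition no test was run. Levels have exact Poisson, shares Clopper-Pearson and ratios exact conditional binomial intervals (95%, SciPy 1.17.1); a count of 0 is given with the limit of 3 counts. Other pathway genes were named where they passed 1.5-fold with at least 50 UMIs over both libraries and the interval left out 1. The pathway genes given although they missed this rule were chosen after their values were seen. For each of the 9 genes the 2 genes of highest correlation over types and libraries were named, among genes with at least 200 UMIs. Motifs were searched on both strands of 300-base RefSeq windows. The counting was tested on simulated data. Alternatives changed the cell filter, doublets, resolution, clustering, cell typing, denominator, thinning, count minimum and fold, and 4 more were chosen after seeing the data (without a TAC macrophage cluster, without subclusters led by genes of other types, without the top cell, and cells of at least 1000 UMIs).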

Additional observations from a re-analysis of the deposited data

Results flagged for a closer look

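The TAC/Sham ratio of Tlr4 was 1.13 (1.01–1.26) in fibroblasts and 0.816 (0.778–0.857) in cardiomyocytes. It drew attention because the same gene stood higher in TAC in one cell type and lower in another, each interval leaving out 1. The difference between both ratios was not tested, since each condition was 1 library. The fibroblast interval held 1 in 3 of 10 alternatives. With both libraries clustered together, the Tlr4 ratio was 1.27 (1.02–1.58) in the Adgrd1 fibroblast cluster, with 324 Sham and 537 TAC cells. The ratio was 1.09 (0.937–1.26) in the Col8a1 cluster and 0.761 (0.548–1.05) in the Nkain2 cluster.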

How the results depend on the processing

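All 369 alternative TAC/Sham ratios of the 9 genes lay within the counting interval of the main ratio. A reversal of direction was sought only where that interval left out 1, and none was found. Elsewhere some ratios crossed 1. Irak2 in cardiomyocytes had 1.18 in the main setting and 0.963 at the lowest. Myd88 in macrophages had 0.900 and, at the highest, 1.14, and Tlr3 in pericytes 0.902 and 1.05. Some intervals also came to hold or to leave out 1, several of them given in the Results. Over all alternatives the ratio ranged from 0.665 to 0.728 for Tlr7 in macrophages, from 0.814 to 0.833 for Tlr4 in cardiomyocytes, from 0.475 to 0.516 for Myd88 in cardiomyocytes, from 0.711 to 0.777 for Irak2 in endothelial cells and from 1.21 to 1.31 for Irak3 in fibroblasts. With doublets kept in, the share of UMIs was 70.1% in Sham and 61.1% in TAC for Tlr4 in cardiomyocytes, and 60.1% and 61.5% for Irak3 in fibroblasts. With each cell typed by its own markers it was 76.7% for Tlr4 in Sham cardiomyocytes, 90.2% and 91.9% for Tlr7 and 82.5% (Sham) for Cd14 in macrophages, and 58.9% and 61.5% for Irak3 in fibroblasts. The share of macrophages with a Tlr7 UMI was 11.8% in Sham and 9.73% in TAC at 500 UMIs a cell, 39.6% and 29.1% at 2000, and 27.7% and 25.8% without thinning. Of the other values, 702 of 720 levels and 601 of 630 shares of UMIs moved by less than their counting interval, whereas 167 of 270 shares of cells with a UMI moved by more, since such shares depend on the depth of thinning.

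Genes 1.5-fold higher and lower in TAC numbered 874 and 835 in macrophages (1590 and 1393 with at least 20 UMIs, 303 and 184 at 2-fold), 1296 and 532 in fibroblasts (2143 and 961 with at least 20 UMIs, 504 and 89 at 2-fold), 877 and 589 in endothelial cells (1720 and 1042 with at least 20 UMIs, 337 and 98 at 2-fold), 1705 and 897 in cardiomyocytes (2619 and 1321 with at least 20 UMIs, 740 and 174 at 2-fold) and 621 and 549 in pericytes (1312 and 1029 with at least 20 UMIs, 218 and 83 at 2-fold). No paired analysis was possible because the values come from no test, with 1 library on each side whose shared number only names it.

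With 1 library of 3 to 5 pooled hearts per condition, a difference between Sham and TAC cannot be told apart from one between pools or libraries. Genes with few UMIs (Tlr13, Tlr2, Cd14 and Myd88) allow only wide intervals. Cell loss in dissociation, free RNA and the mix of states within a type were described and not modelled.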
